A study of Mus musculus with 12 samples.

Results

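The 10 genes of MHC class II antigen presentation considered here, H2-Aa, H2-Ab1, H2-Eb1, H2-DMa, H2-DMb1, H2-DMb2, H2-Oa, H2-Ob, Cd74 and Ciita, were chosen by gene symbol from the 55335 genes quantified in each of 12 RNA-seq libraries. All 10 had enough counts to be tested. The libraries were made from BMDCs, dendritic cells differentiated for 6 days from C57BL/6 mouse bone marrow with GM-CSF and enriched for the surface protein CD11c. WT cells carried CreER, a tamoxifen-activated Cre recombinase expressed from the Rosa26 locus, and CTCF-deficient cells carried CreER together with loxP-flanked Ctcf alleles (CreER; CTCF fl/fl). Deletion of Ctcf was induced with 4-hydroxytamoxifen from the start of the culture. Whether WT cultures also received it is not clear from the study's text, so an effect of the drug and an effect of the deletion cannot be told apart. Cells were left untreated (WT and KO) or were stimulated with LPS, a bacterial cell wall component, at 100 ng/ml for 3 h (WTL and KOL), with 3 replicates in each of the 4 groups. The mice were of both sexes and 8 to 12 weeks old, and the CreER controls were age- and sex-matched littermates.

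MHC class II molecules are heterodimers of an alpha and a beta chain that display peptides from endocytosed proteins to CD4+ T cells. In C57BL/6 mice the surface molecule is I-A, made by H2-Aa (alpha) and H2-Ab1 (beta), because the alpha chain gene of I-E is not functional and the beta chain from H2-Eb1 therefore has no partner. The invariant chain, encoded by Cd74, escorts the heterodimer to endosomes. There H2-DM (H2-DMa with H2-DMb1 or H2-DMb2) exchanges the remnant of the invariant chain for peptide, and H2-DO (H2-Oa with H2-Ob) binds H2-DM and restrains it. Ciita encodes the transactivator that docks on a complex of RFX, CREB and NF-Y proteins at the X and Y boxes of class II promoters.

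Total expected counts, the read counts that RSEM estimates per gene, were 12769773 to 16586334 per library. Counts were scaled by edgeR's TMM factors, and normalized counts below refer to a library of mean effective size. Ctcf itself had 1051, 987 and 975 normalized counts in WT, 886, 817 and 745 in WTL, 570, 562 and 516 in KO and 563, 530 and 526 in KOL, so that all CTCF-deficient libraries lay below all CTCF-competent ones. LPS-treated replicates were more variable than untreated ones, with a biological coefficient of variation, the relative spread beyond counting noise, of 13.7% in WTL and 14.4% in KOL against 4.92% in WT and 2.62% in KO. WTL replicate 1 and KOL replicate 2 stood apart from the other replicates of their groups across genes (mean squared deviation of log2 counts from the group mean of 0.119 and 0.141, against 0.0767 to 0.0877 in the other 4 LPS libraries). In these same libraries Ciita was the highest of its group and H2-Ab1 and Cd74 the lowest. Results are also given without them where a call depends on them. The pair was chosen after these values were seen, and leaving out deviant libraries lowers the spread that the test measures. P-values without the pair therefore tend to be low and are no separate test. On raw counts, WTL replicate 2 was instead the farthest in its group. Its chi-square per degree of freedom was 86 and 80.3, against 31.1 between replicates 1 and 3. In WTL replicate 2, 5.17% of counts were in ribosomal RNA genes, against 0.383% to 1.18% in the other libraries. No source used here says that replicates came from different animals beyond calling them biological. P-values measure the spread between these libraries, pooled for each gene over all groups in the same fit. Leaving out LPS-treated libraries therefore also changes p-values in KO against WT.

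On a scale that accounts for transcript length (TPM), Cd74 was the most abundant of the 10 genes in WT BMDCs, at 5132 ± 188 TPM (SD, n = 3). H2-Aa followed at 3519 ± 58.0 TPM, H2-Eb1 at 2163 ± 126 TPM and H2-Ab1 at 1743 ± 94.2 TPM. H2-DMa had 349 ± 8.45 TPM and H2-DMb1 had 207 ± 3.52 TPM. At the low end were H2-DMb2 with 49.5 ± 5.37 TPM, Ciita with 45.8 ± 3.45 TPM, H2-Ob with 18.7 ± 2.46 TPM and H2-Oa with 17.5 ± 0.267 TPM. Of these neighbours in the order, the WT libraries of H2-DMb2 and Ciita and those of H2-Ob and H2-Oa overlapped. Cd74 and the I-A and I-E chain genes held 94.4% to 97.2% of the TPM of the 10 genes in every library. The 10 genes together made up 12763 to 13570 TPM in WT, 7896 to 8246 in KO, 12296 to 17025 in WTL and 11986 to 17319 in KOL. The KO libraries were thus below every other library, whereas the WTL and KOL ranges overlapped with each other and with that of WT.

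The class II genes on mouse chromosome 17 are known for a shared promoter architecture, and the promoter windows of RefSeq (GRCm38.p6, 250 bases before to 50 after each annotated start) were read to show it. Of the 10 genes, 7 had a window, H2-DMa with a pair of starts, which gave 8 windows. H2-Ab1, Cd74 and Ciita were not among them. The Y box, searched as GATTGG on both strands, was in 7 of the 8 windows and in 16.1% of all 32851 windows. The CCAAT box, CCAAT on both strands and contained in the Y box on the other strand, was likewise in 7 of 8, against 37.4% of all. The X box core, searched as ACNGATG on both strands, was in 5 of 8 windows and in 9.85% of all. An X box followed within 40 bases by a Y box on the same strand was found in H2-DMb2, H2-DMb1 and H2-Eb1 (3 of 8 windows, 0.122% of all), and also in H2-Eb2, a class II beta chain gene outside the list. In these 4 promoters the boxes were separated by 21 or 22 bases. The following stretches of 63 bases, in the direction of transcription, show the genes that fell most clearly on CTCF depletion beside H2-DMb2, which did not pass the test, and H2-Oa and H2-Ob, which rose under LPS. Capitals mark the Y box and, where the searched letters matched upstream of it, the X box.
H2-Eb1 (chr17:34305762-34305824, +): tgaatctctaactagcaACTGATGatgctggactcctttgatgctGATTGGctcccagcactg
H2-Eb2 (chr17:34325529-34325591, +): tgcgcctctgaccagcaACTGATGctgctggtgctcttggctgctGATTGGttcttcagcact
H2-DMb1 (chr17:34153084-34153146, +): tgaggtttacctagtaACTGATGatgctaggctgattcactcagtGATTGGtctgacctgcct
H2-DMb2 (chr17:34145113-34145175, +): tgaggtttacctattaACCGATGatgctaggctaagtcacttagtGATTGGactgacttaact
H2-Aa (chr17:34287855-34287917, -): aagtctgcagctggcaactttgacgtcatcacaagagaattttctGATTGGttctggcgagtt
H2-Ob (chr17:34238802-34238864, +): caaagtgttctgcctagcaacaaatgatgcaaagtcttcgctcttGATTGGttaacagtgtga
H2-Oa (chr17:34092290-34092352, +): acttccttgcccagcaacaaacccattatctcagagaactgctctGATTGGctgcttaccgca

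The Y box of these genes lay 44 to 101 bases before the annotated start. H2-DMb1 and H2-DMb2 share 54 of the 63 letters. In H2-Aa, H2-Ob and H2-Oa the searched X box letters did not match upstream of the Y box in this stretch. The letters GCAAC, chosen after the windows were read, preceded the Y box within 40 bases in H2-Aa, H2-Ob, H2-Oa and H2-Eb1 (4 of 8 windows, 0.63% of all). These matches are descriptions of letters and not of binding.

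In untreated BMDCs, CTCF depletion lowered the genes of the I-A and I-E chains by 1.70- to 2.21-fold. H2-DMa and H2-DMb1 fell with them, and H2-DMb2, H2-Oa, H2-Ob, Cd74 and Ciita did not pass the test. Of the 10 genes, 5 were downregulated in KO relative to WT and 0 upregulated, at an adjusted p under 0.05 (edgeR, quasi-likelihood test, Benjamini-Hochberg adjustment over the 14008 genes tested), where 22.4% of all genes tested were called lower and 22.2% higher. With the study's 1.3-fold cutoff for this comparison the count was again 5 lower and 0 higher, against 17.2% and 17.3% of all genes. From RNA of these CD11c-enriched populations alone, fewer class II-bearing cells and less class II RNA per cell cannot be told apart. The paper reports a comparable percentage of dendritic cells in WT and CTCF-deficient cultures. It also measured surface MHC class II on dendritic cells of both genotypes by flow cytometry. Those measurements were not analysed here.

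**Figure D1:**
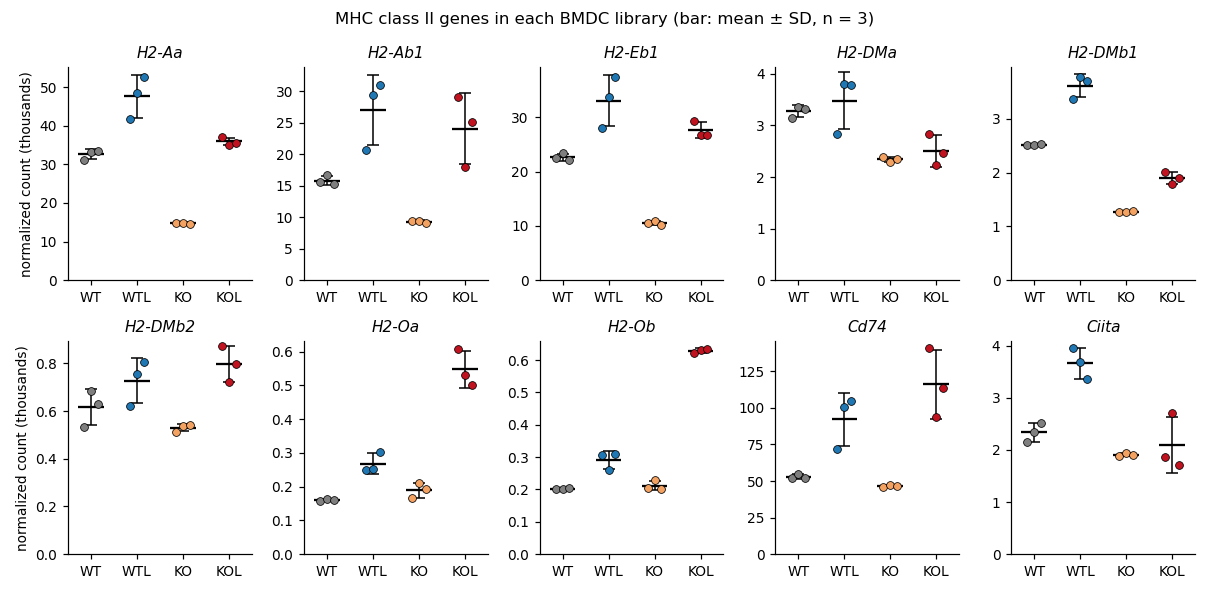
Normalized counts (axis units of 1e3, starting at 0) of the 10 genes in each library of WT, WTL, KO and KOL BMDCs, with the mean and SD of 3 replicates. The KO libraries of H2-Aa, H2-Ab1, H2-Eb1, H2-DMa and H2-DMb1 lie below all WT libraries, and the KOL libraries of H2-Oa and H2-Ob lie above all others.

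H2-Aa, the I-A alpha chain, had 31197, 33280 and 33364 normalized counts in the WT libraries and 14851, 14927 and 14442 in the KO libraries. After LPS it had 41663, 48472 and 52638 in WTL and 37053, 35078 and 35619 in KOL. The 4 groups did not overlap, in the order KO, WT, KOL, WTL. H2-Aa was 2.21-fold lower in KO than in WT (log2 fold change -1.15 ± 0.08, SE; edgeR adjusted p = 4.1e-08). Under LPS the gap narrowed to 1.33-fold (-0.41 ± 0.08, edgeR adjusted p = 0.0008).

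H2-Ab1, the I-A beta chain, had 15536, 16655 and 15190 normalized counts in WT and 9454, 9419 and 9020 in KO, with no overlap. The LPS-treated libraries spread widely and overlapped, at 20583, 29337 and 30991 in WTL and 28986, 17980 and 25160 in KOL. The lowest of each were WTL replicate 1 and KOL replicate 2. H2-Ab1 was 1.70-fold lower in KO than in WT (log2 fold change -0.76 ± 0.16, edgeR adjusted p = 0.0012). The KOL and WTL difference of -0.17 ± 0.16 did not pass the test (edgeR adjusted p = 0.42, and 0.061 with a log2 fold change of -0.16 without WTL replicate 1 and KOL replicate 2).

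H2-Eb1, the I-E beta chain, had 22556, 23373 and 22108 normalized counts in WT and 10466, 10821 and 10137 in KO. WTL reached 28068, 33824 and 37381 and KOL 29304, 26824 and 26765. The untreated groups were apart, and KOL replicate 1 lay above WTL replicate 1. H2-Eb1 was 2.17-fold lower in KO than in WT (log2 fold change -1.11 ± 0.09, edgeR adjusted p = 2e-07). The 1.20-fold difference under LPS was near the threshold (-0.26 ± 0.09, edgeR adjusted p = 0.03). It did not pass after 7 of the 12 single libraries were left out in turn, and was -0.35 ± 0.06 (edgeR adjusted p = 0.00017) without WTL replicate 1 and KOL replicate 2 together.

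The alpha chain pseudogene of I-E, H2-Ea-ps, had at most 1.35 normalized counts in any library, as the strain implies. H2-Eb2, a beta chain gene that lies next to H2-Eb1, had a larger fitted fold change in KO against WT than any of the 10 genes. It had 207, 188 and 224 normalized counts in WT, 29.6, 37.4 and 26.9 in KO, 155, 145 and 169 in WTL and 79.6, 71.4 and 60.9 in KOL, with no overlap between any groups. It was 6.57-fold lower in KO than in WT (log2 fold change -2.72 ± 0.15, edgeR adjusted p = 3.4e-09).

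The genes of H2-DM, the peptide exchange factor, divided on CTCF depletion. H2-DMa had 3146, 3365 and 3310 normalized counts in WT and 2383, 2290 and 2357 in KO, which did not overlap. In WTL it had 2842, 3803 and 3791 and in KOL 2837, 2227 and 2456, the lowest WTL library lying just above the highest KOL library. It was 1.40-fold lower in KO (log2 fold change -0.48 ± 0.11, edgeR adjusted p = 0.0022) and 1.39-fold lower in KOL (-0.47 ± 0.11, edgeR adjusted p = 0.0026) than in the CTCF-competent counterpart. The annotated start of H2-DMa overlaps that of Brd2 on the other strand, and whether the counting used strand is not given in the sources used here.

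H2-DMb1 was among the least variable of the genes within groups, with 2505, 2506 and 2528 normalized counts in WT, 1275, 1261 and 1280 in KO, 3370, 3766 and 3699 in WTL and 2014, 1787 and 1895 in KOL. All KOL libraries were below all WT libraries. It was 1.98-fold lower in KO (log2 fold change -0.98 ± 0.07, edgeR adjusted p = 3.6e-08) and 1.9-fold lower in KOL (-0.93 ± 0.07, edgeR adjusted p = 6.5e-08). The 2 falls were of like size, with and without LPS.

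H2-DMb2, a near copy of H2-DMb1, had 534, 686 and 631 normalized counts in WT, 512, 536 and 542 in KO, 622, 754 and 805 in WTL and 874, 723 and 799 in KOL. Neighbours in the order KO, WT, WTL, KOL overlapped. The difference was -0.22 ± 0.11 in KO (edgeR adjusted p = 0.12) and 0.13 ± 0.11 in KOL (edgeR adjusted p = 0.35). Without WTL replicate 1 and KOL replicate 2, which KO against WT does not include, the former was -0.22 ± 0.08 (edgeR adjusted p = 0.018). The counts of H2-DMb1 and H2-DMb2 were not whole in 12 of 12 libraries, since RSEM divided reads that fit both, and their separate levels are uncertain to that extent. Summed before the test, the pair was lower in KO by 0.80 ± 0.07 and in KOL by 0.69 ± 0.07 on the log2 scale (edgeR adjusted p = 5.7e-07 and 2.7e-06).

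H2-Oa and H2-Ob, the genes of the H2-DM inhibitor H2-DO, were the genes of the list that rose in CTCF-deficient cells, and they did so under LPS. H2-Oa had 157, 162 and 161 normalized counts in WT, 166, 209 and 192 in KO, 249.5, 252 and 303 in WTL and 608, 531 and 502 in KOL. The groups did not overlap, although the KO and WT difference of 0.24 ± 0.11 did not pass (edgeR adjusted p = 0.1). H2-Oa was 2.03-fold higher in KOL than in WTL (log2 fold change 1.02 ± 0.10, edgeR adjusted p = 2.1e-06).

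H2-Ob had 202, 201 and 205 normalized counts in WT and 204, 229 and 203 in KO, which overlapped and differed by 0.06 ± 0.09 on the log2 scale (edgeR adjusted p = 0.59). It had 306, 260.0 and 309 in WTL and 622, 631 and 635 in KOL with the groups well apart. H2-Ob was 2.16-fold higher in KOL than in WTL (log2 fold change 1.11 ± 0.08, edgeR adjusted p = 5.8e-08).

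Cd74, the invariant chain, had 51822, 54711 and 52185 normalized counts in WT and 45623, 47423 and 46787 in KO. It had 71550, 100748 and 104629 in WTL and 140687, 93839 and 113734 in KOL. The untreated groups did not overlap but differed by only -0.18 ± 0.14 (edgeR adjusted p = 0.32). Without WTL replicate 1 and KOL replicate 2, which KO against WT does not include, the difference was -0.18 ± 0.06 (edgeR adjusted p = 0.014). The LPS-treated groups overlapped and differed by 0.33 ± 0.14 (edgeR adjusted p = 0.072). That difference was 0.31 ± 0.07 with an edgeR adjusted p of 0.0019 without the 2 libraries. The call on Cd74 under LPS thus turned on these libraries, and the untreated call on the spread they add to the fit.

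Ciita, the transactivator, had 2144, 2346 and 2518 normalized counts in WT and 1889, 1936 and 1906 in KO, without overlap. The difference of -0.29 ± 0.13 did not pass (edgeR adjusted p = 0.095). Without WTL replicate 1 and KOL replicate 2, which KO against WT does not include, it was -0.29 ± 0.06 and passed (edgeR adjusted p = 0.00044). Only the spread pooled in the fit had changed. Ciita had 3949, 3684 and 3356 in WTL and 1870, 2705 and 1704 in KOL. It was 1.75-fold lower in KOL than in WTL, with no overlap (log2 fold change -0.81 ± 0.13, edgeR adjusted p = 0.00022).

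In LPS-stimulated cells, therefore, 5 of the 10 genes were downregulated by CTCF depletion (H2-Aa, H2-Eb1, H2-DMa, H2-DMb1 and Ciita) and 2 upregulated (H2-Oa and H2-Ob), where 23.3% of all genes tested were lower and 21.4% higher. At the study's 1.5-fold cutoff for this comparison, 2 were lower (H2-DMb1 and Ciita) and 2 higher (H2-Oa and H2-Ob), against 12.5% and 12.5% of all genes. The median log2 fold change of the 10 genes was -0.39 in KO against WT and -0.21 in KOL against WTL, beside -0.01 and -0.03 over all genes.

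**Figure D2:**
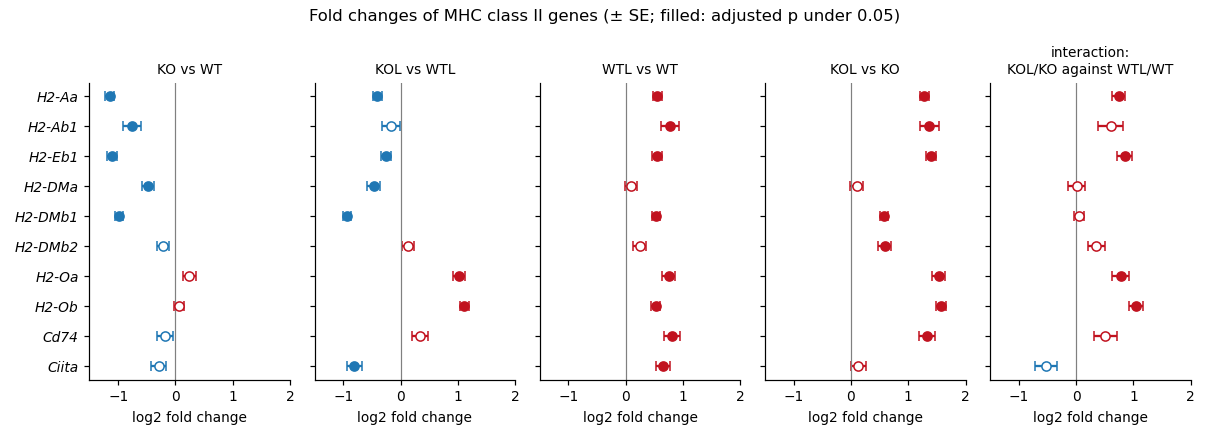
Log2 fold changes (points, ± SE) of the 10 genes in KO against WT, KOL against WTL, WTL against WT, KOL against KO, and in the interaction, which is the LPS response in KO minus that in WT. Filled points passed an edgeR adjusted p of 0.05: H2-Oa and H2-Ob pass to the right in KOL against WTL, and H2-Aa, H2-Eb1, H2-Oa and H2-Ob pass in the interaction.

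LPS raised 8 of the 10 genes in WT cells and 8 in CTCF-deficient cells when counts were scaled by TMM, with 0 lower in either. Without WTL replicate 1 and KOL replicate 2 the counts were 10 and 9 higher and 0 lower. In that fit 4781 and 5112 of all 14331 genes were higher, and 4725 and 5261 lower. In WTL against WT, 30.0% of all genes tested were higher and 30.2% lower. At 2-fold, 0 of the 10 genes were higher and 0 lower in WTL against WT, where 12.6% and 9.99% of all genes were. In KOL against KO, 33.6% of all genes were higher and 33.9% lower. There, 6 of the 10 genes rose by more than 2-fold and 0 fell by as much, against 15.1% and 13.0% of all genes. The median log2 fold change of the 10 genes was 0.55 in WT cells and 1.3 in CTCF-deficient cells, and that of all genes was -0.02 in both.

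The size of the LPS response depended on the scaling. TPM, which fixes the sum of all transcripts, placed the median of all genes at -0.44 in WTL against WT and at -0.38 in KOL against KO (limma on log2(TPM + 1)). By that scale 18.5% of the genes called in WTL against WT and 24.5% of those called in KOL against KO were higher, in place of 49.9% and 49.7%. In WTL against WT, 0 of the 10 genes were then called higher and 2 lower (H2-DMa at -0.44 and H2-DMb2 at -0.29, limma adjusted p = 0.0055 and 0.043). Over all 13435 genes tested on that scale, 1710 were higher and 7544 lower. In KOL against KO, 6 remained higher (H2-Aa, H2-Ab1, H2-Eb1, H2-Oa, H2-Ob and Cd74) and 2 were lower (H2-DMa and Ciita), beside 2245 higher and 6935 lower of the 13435. TPM was also rescaled so that its median log2 ratio to the TMM-normalized counts was equal in all libraries. With that, 8 were higher and 0 lower in each. The rescaling puts TPM on the TMM scale by design, so these counts are no separate check of that scale. The rises in WT cells are thus relative to the bulk of genes, whereas those of 6 genes in CTCF-deficient cells were found on either scale. In KO against WT, where the TPM median was -0.10 and 36.4% of called genes were higher in place of 49.8%, the same 5 genes were lower on both scales. On the TPM scale 1807 of the 13435 genes were higher there and 3151 lower.

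**Figure D3:**
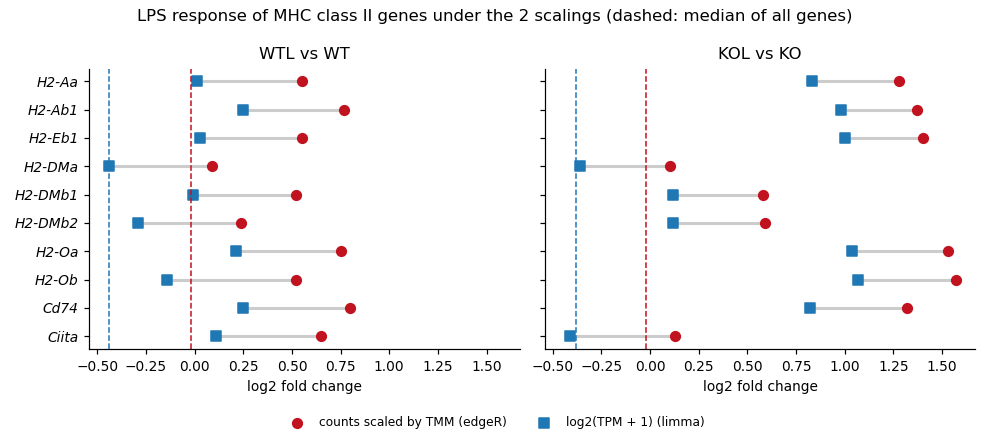
Log2 fold changes of the 10 genes after LPS in WT (left) and CTCF-deficient (right) BMDCs, from counts scaled by TMM (circles) and from log2(TPM + 1) (squares), with the median of all genes under each as a dashed line. For most genes both points keep a similar distance from their own dashed line. H2-Ob in the left panel is an exception, at 0.52 and -0.14 beside lines at -0.02 and -0.44. In the right panel the squares of 6 genes lie at 0.82 or above.

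For the chains, the LPS response was larger in the CTCF-deficient cells, which started lower. H2-Aa rose 1.46-fold in WT (log2 fold change 0.55 ± 0.08) and 2.44-fold in CTCF-deficient cells (1.28 ± 0.08), a difference of 0.74 ± 0.11 (edgeR interaction, adjusted p = 0.00048). H2-Eb1 rose 1.46-fold and 2.64-fold, a difference of 0.85 ± 0.13 (edgeR adjusted p = 0.00042). H2-Ab1 rose 1.71-fold and 2.59-fold, and its difference of 0.60 ± 0.22 did not pass (edgeR adjusted p = 0.081, and 3.8e-05 without WTL replicate 1 and KOL replicate 2). H2-Eb2 differed from these genes in WT cells, where it fell by 0.40 ± 0.12 (edgeR adjusted p = 0.013), and it rose by 1.17 ± 0.17 in CTCF-deficient cells (edgeR adjusted p = 2.7e-05).

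For H2-DO, which did not differ by the test between the untreated genotypes, the LPS response was also larger in CTCF-deficient cells. H2-Oa rose 1.68-fold in WT and 2.90-fold in CTCF-deficient cells, a difference of 0.78 ± 0.15 (edgeR interaction, adjusted p = 0.0031). H2-Ob rose 1.44-fold and 2.97-fold, a difference of 1.05 ± 0.12 (edgeR adjusted p = 3.9e-05). In the interaction 4 of the 10 genes were thus higher and 0 lower, where 8.7% of all genes were higher and 8.75% lower. Without WTL replicate 1 and KOL replicate 2 the counts were 7 and 1, with 4389 in place of 2443 genes called in all.

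For the H2-DM genes, no difference in LPS response between the genotypes passed the test with all libraries. H2-DMb1 rose 1.44-fold in WT and 1.49-fold in CTCF-deficient cells (interaction 0.05 ± 0.09, edgeR adjusted p = 0.75). H2-DMb2 rose in CTCF-deficient cells (0.59 ± 0.11, edgeR adjusted p = 0.00025), with 0.24 ± 0.11 in WT cells (edgeR adjusted p = 0.071, and 0.0015 at 0.34 without WTL replicate 1 and KOL replicate 2). Its interaction of 0.35 had an edgeR adjusted p of 0.14, and of 0.044 without these libraries. H2-DMa had 0.09 ± 0.11 and 0.10 ± 0.11, neither past the test (edgeR adjusted p = 0.5 and 0.44). Without WTL replicate 1 and KOL replicate 2 both passed, at 0.21 and 0.17 (edgeR adjusted p = 0.0034 and 0.014).

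Cd74 rose 1.74-fold in WT (0.80 ± 0.14) and 2.49-fold in CTCF-deficient cells (1.32 ± 0.14), and the difference of 0.51 ± 0.20 did not pass (edgeR adjusted p = 0.095, and 0.00067 without the 2 libraries that stood apart). Ciita rose 1.57-fold in WT (0.65 ± 0.13, edgeR adjusted p = 0.00076). In CTCF-deficient cells its change of 0.13 ± 0.13 did not pass (edgeR adjusted p = 0.4), and its direction turned on KOL replicate 2, without which it was -0.10 (edgeR adjusted p = 0.32). The interaction of -0.52 ± 0.19 for Ciita had an edgeR adjusted p of 0.077, and of 0.00034 at -0.74 without that library. Ciita is the gene of the list whose fitted interaction is below 0, opposite in sign to those of the chain and H2-DO genes.

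Ratios between genes of one library do not depend on the scaling of libraries. The ratio of H2-DO to H2-DM genes (summed TPM of H2-Oa and H2-Ob over that of H2-DMa, H2-DMb1 and H2-DMb2) was 0.0650, 0.0581 and 0.0565 in WT, 0.0841, 0.108 and 0.0936 in KO, 0.0832, 0.0632 and 0.0772 in WTL and 0.212, 0.259 and 0.210 in KOL. All KOL libraries were above all others, and all KO above all WT libraries. CTCF depletion raised the ratio 1.59-fold without LPS and 3.06-fold with it, 2.20-fold on average. With LPS it was 2.39-fold higher in CTCF-deficient cells, without overlap, and 1.24-fold in WT cells, where a WTL library (0.0632) lay below a WT library (0.0650), which averages to 1.72-fold. By an exact two-sided permutation test within strata (400 arrangements, smallest p 0.005), p was 0.005 for genotype (0.017 adjusted over the 10 ratio tests) and 0.01 for LPS (adjusted 0.025).

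The ratio of Cd74 to the chain genes (summed TPM of H2-Aa, H2-Ab1 and H2-Eb1) was 0.696, 0.691 and 0.686 in WT and 1.24, 1.28 and 1.32 in KO. With LPS, WTL libraries had 0.736, 0.814 and 0.782, and KOL libraries 1.31, 1.11 and 1.17. The CTCF-deficient libraries lay above all others in either state, with a 1.85-fold difference without LPS, 1.54-fold with it and 1.69-fold on average (exact permutation p = 0.005, adjusted 0.017). With LPS the ratio was 1.12-fold higher in WT cells, where all WTL libraries lay above all WT libraries. It was 0.931 times the untreated level in CTCF-deficient cells, where KO and KOL overlapped. The average of these opposite differences was 1.02-fold (exact permutation p = 0.59), and 3 libraries against 3 in a single genotype allow no exact two-sided p below 0.1.

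H2-DMb2 relative to H2-DMb1 was 0.209, 0.266 and 0.243 in WT, 0.391, 0.415 and 0.417 in KO, 0.180, 0.195 and 0.212 in WTL and 0.421, 0.394 and 0.411 in KOL. CTCF depletion raised it 1.71-fold without LPS, 2.09-fold with it and 1.89-fold on average (exact permutation p = 0.005, adjusted 0.017). The ratios of H2-Ab1 to H2-Aa and of H2-Eb1 to H2-Ab1 did not pass after adjustment for genotype (log2 differences of 0.28 and -0.21, exact permutation adjusted p = 0.1 and 0.08) or for LPS (0.19 and -0.10, exact permutation adjusted p = 0.18 and 0.28).

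**Figure D4:**
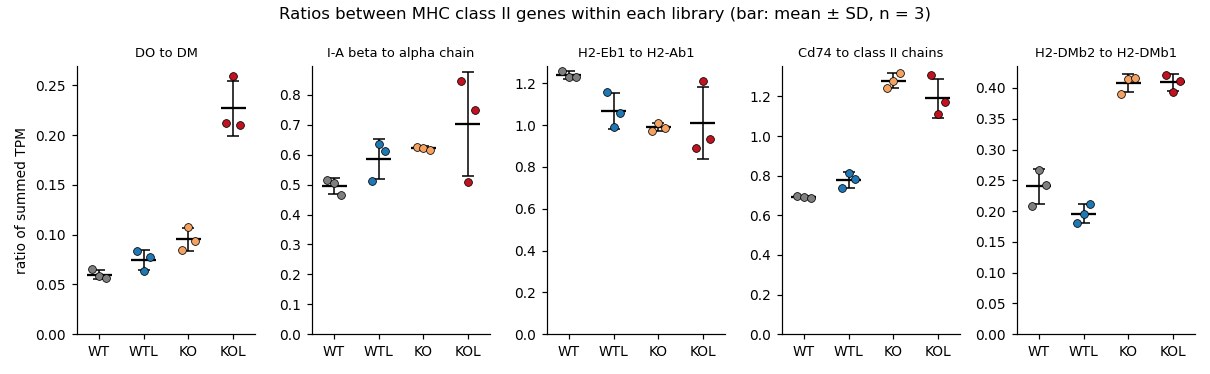
Ratios of summed TPM within each library for 5 pairs of class II genes or complexes (axes start at 0), with the mean and SD of 3 replicates. In the DO to DM panel the KOL libraries lie at 0.210 to 0.259 and all others at or below 0.108, and in the panel of Cd74 to the chain genes all 6 CTCF-deficient libraries lie at 1.11 or above.

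In the genome (mm10, GENCODE M21), 8 of the 10 genes lie within 224 kb of chromosome 17, in the order H2-Oa (34092340-34095234), H2-DMa (34119541-34139101), H2-DMb2 (34143307-34151555), H2-DMb1 (34153072-34160230), H2-Ob (34238903-34254414), H2-Ab1 (34257689-34269419), H2-Aa (34282744-34287823) and H2-Eb1 (34305867-34316674). H2-Aa is on the minus strand and the others are on the plus strand. Ciita is on chromosome 16 (10480059-10528418, plus strand). Of 41 annotated genes between 100 kb before the first and 100 kb after the last of the 8, 25 were tested, 17 of them not members.

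The genes that fell on CTCF depletion in this window were not one uninterrupted run. Between H2-DMb1 and H2-Ob lie Psmb9, Tap1, Psmb8 and Tap2, which serve peptide supply to MHC class I. Of these, Tap1, Psmb8 and Tap2 were higher in KO than in WT, by 0.20, 0.29 and 0.43 on the log2 scale (edgeR adjusted p = 0.04, 0.022 and 0.0052), and Psmb9 differed by 0.07 (edgeR adjusted p = 0.59). Over the 17 other genes of the window, 5 were higher and 2 lower in KO, with a median log2 fold change of 0.10. Of all genes tested, 22.2% were higher and 22.4% lower. Btnl1, among the higher ones, was near the floor, with 1.73 to 5.87 normalized counts in WT and 9.26 to 11.5 in KO. The 2 lower ones were H2-Eb2 and Gm20513, an antisense gene that overlaps H2-Eb1 and whose reads cannot be told from those of H2-Eb1 if strand was not used. From H2-Ab1 to H2-Eb2, 5 of 5 tested genes were lower in KO, beside 22.4% of all genes tested. The ends of this stretch were set with the values known. The next tested genes, H2-Ob before it and Btnl1 after it, had log2 fold changes of 0.06 and 1.52. The share of all genes is therefore no yardstick for this count. The 5 genes include Gm20513, which was near the floor, with 6.71 to 10.4 normalized counts in WT and 1.85 to 4.49 in KO. In KOL against WTL, 6 of the 17 were higher and 1 (H2-Eb2) was lower, beside 21.4% and 23.3% of all genes tested.

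**Figure D5:**
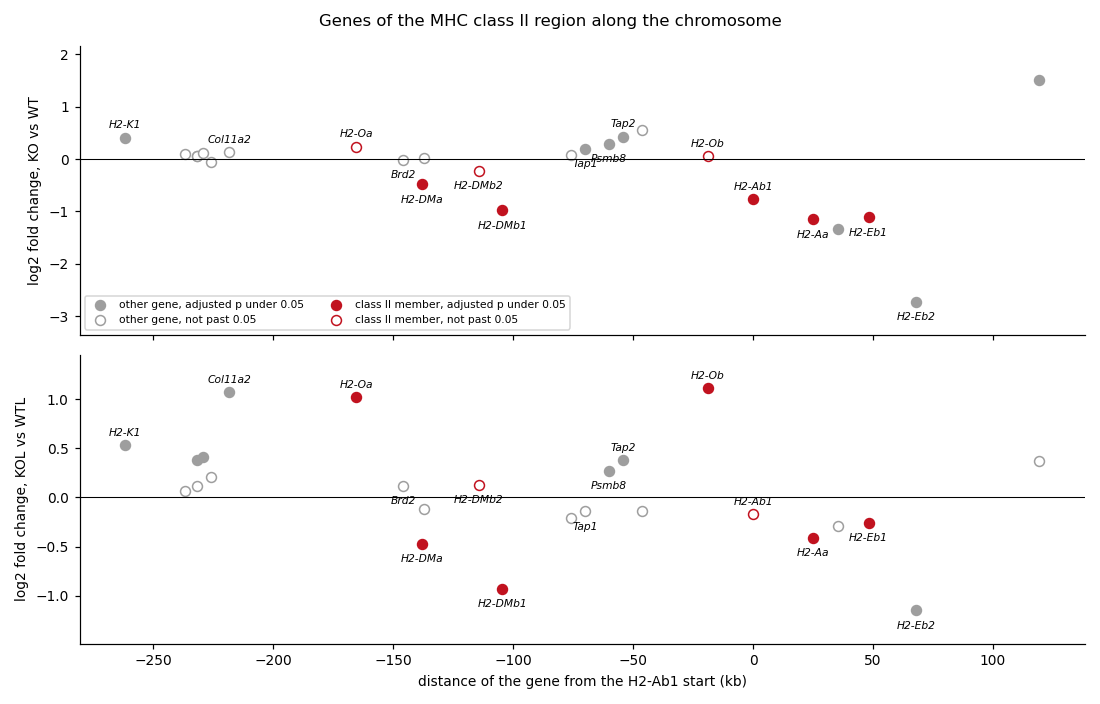
Log2 fold changes of the tested genes of the class II region in KO against WT (top) and KOL against WTL (bottom), by the distance in kb of each gene from the H2-Ab1 start. Class II members are in red, and filled points passed an edgeR adjusted p of 0.05. Genes from H2-Ab1 rightwards to H2-Eb2 lie below 0 in the top panel, and the class I processing genes Tap1, Psmb8 and Tap2 lie above 0 between members that fell.

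Genes that act on the class II promoters went in both directions on CTCF depletion. Of 7 genes of the complex that binds the X and Y boxes (Rfx5, Rfxap, Rfxank, Creb1, Nfya, Nfyb and Nfyc), 1 was higher and 1 lower in KO against WT, and the median was -0.09. Of all genes tested, 22.2% were higher and 22.4% lower there. In KOL against WTL, 2 of the 7 were higher and 2 lower, beside 21.4% and 23.3% of all genes. The part of these genes in the class II results was not tested. Nfya, an NF-Y subunit that contacts the Y box, was lower in KO by 0.49 ± 0.07 and in KOL by 0.43 ± 0.07 (edgeR adjusted p = 6e-05 and 0.00019). Nfyb, its partner, was higher in KO by 0.61 ± 0.08 (edgeR adjusted p = 2.2e-05). Rfx5, an RFX subunit, differed by -0.04 ± 0.07 in KO (edgeR adjusted p = 0.68) and was 1.46-fold lower in KOL than in WTL (edgeR adjusted p = 2.6e-05).

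Of 10 genes known to act on the promoters of Ciita or upstream of them, 1 was higher and 3 were lower in KO against WT. Over all genes tested the shares were 22.2% and 22.4%. In KOL against WTL, 2 were higher and 5 lower, beside 21.4% and 23.3% of all genes. Irf1, an interferon-response factor, was 2.5-fold lower in KO and 1.89-fold lower in KOL (edgeR adjusted p = 1.1e-08 and 3.2e-07). Jak2, a kinase of the interferon-gamma receptor, was 1.42-fold lower in KO (edgeR adjusted p = 0.0025). Irf8, a lineage factor of dendritic cells, differed by -0.15 ± 0.11 in KO (edgeR adjusted p = 0.29) and was 2.13-fold lower in KOL (edgeR adjusted p = 1.5e-06). Spi1, encoding PU.1, differed by 0.17 ± 0.07 in KO (edgeR adjusted p = 0.058) and was 1.28-fold lower in KOL (edgeR adjusted p = 0.00064).

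Of 9 endosomal genes that prepare antigen or the invariant chain, 7 were higher and 0 lower in KO against WT, where 22.2% of all genes tested were higher. The counts were again 7 and 0 in KOL against WTL, beside 21.4% of all genes higher. Ctsh and Sppl2a did not pass in KO (log2 fold changes of 0.00 and 0.06, edgeR adjusted p = 0.96 and 0.73). The median log2 fold change was 0.48 in KO. Ctss, the protease that trims the invariant chain, was 1.39-fold higher in KO and 1.24-fold in KOL (edgeR adjusted p = 0.00011 and 0.0031), and Ctsl was 1.55-fold and 1.75-fold higher (edgeR adjusted p = 3.1e-06 and 2.6e-07). Of 3 genes that set class II turnover at the surface, March1, a ubiquitin ligase that removes class II, was 2.30-fold lower in KOL than in WTL (edgeR adjusted p = 6.8e-06). In KO, March1 differed by 0.27 ± 0.13 and did not pass (edgeR adjusted p = 0.095). March8 was higher in KO by 0.19 ± 0.07 (edgeR adjusted p = 0.048) and differed by -0.04 ± 0.08 in KOL (edgeR adjusted p = 0.7). Cd83, which opposes March1, was 1.56-fold lower in KO and 1.31-fold higher in KOL (edgeR adjusted p = 0.00011 and 0.0043).

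Markers of the cells that could be present were read beside these results, in cells selected for CD11c, a step meant to remove cells lacking it. Itgax, encoding CD11c, was 1.78-fold higher in KO than in WT (edgeR adjusted p = 1.3e-06), and Ccr7, a marker of mature dendritic cells, was 0.653 times its WT level in KO and rose with LPS in both genotypes. Of all genes tested, 22.2% were higher and 22.4% lower in KO, to be set beside each marker count that follows. Of 6 dendritic cell markers, 1 was higher and 2 (Ccr7 and Flt3) were lower in KO. Of 6 macrophage markers, 2 (C1qa and Csf1r) were higher and 3 lower in KO, and their summed normalized counts were 20281 to 22028 in WT, 29028 to 30180 in KO, 12955 to 16131 in WTL and 11561 to 15245 in KOL. The higher sum in KO came from Csf1r. The other 5 macrophage markers summed to 6790 to 7397 in WT, 5770 to 6078 in KO, 7284 to 9044 in WTL and 6586 to 8049 in KOL. Of 6 neutrophil markers, 5 were tested and all 5 were lower in KO. B cells also express class II and H2-DO genes. The 6 B cell markers together had 12.1 to 19.3 normalized counts in WT, 11.7 to 13.0 in KO, 9.44 to 34.0 in WTL and 26.9 to 29.9 in KOL. None of them was abundant enough to be tested. The sums for 4 plasmacytoid dendritic cell markers were 327 to 360 in WT, 155 to 198 in KO, 1867 to 2014 in WTL and 1312 to 1398 in KOL, almost wholly from Tcf4. The part of these markers, those of B cells included, in the class II results was not tested.

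Over the 12 libraries, 4 of the 5 genes outside the list whose log2 normalized counts followed most closely the mean pattern of H2-Aa, H2-Ab1, H2-Eb1 and Cd74 were Nfkbid (Pearson r = 0.996), Grasp (0.993), Zfp36 (0.993) and Relb (0.985), among 9338 genes with a mean of at least 100. Of the remaining members, H2-DMb2 had r = 0.897 with this pattern, H2-DMb1 0.777, H2-Oa 0.629, H2-Ob 0.616, H2-DMa 0.566 and Ciita 0.516. The genes most like Ciita were Epb41l2 (r = 0.968), Sh3tc1 (0.967), Flii (0.966), Bahcc1 (0.963) and Tet2 (0.961). H2-DMb1 was the member most like Ciita (0.813), and H2-Oa and H2-Ob were the least like it (-0.041 and -0.0756). The libraries form 4 groups and share their scaling, so these values describe likeness only.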

How the data were processed

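RNA-seq of 12 BMDC libraries (WT, WTL, KO and KOL, 3 replicates each, assigned from the sample labels) was analysed from the tables the authors deposited. The authors used Trim Galore for trimming, STAR (2.5.1 in the submitters' processing notes) for alignment to mm10 and RSEM for quantification. The deposited expected counts are RSEM's estimated counts, which split ambiguous reads between genes. The deposited TPM values are scaled to a fixed sum per library and keep no depth. The paper's methods name a stranded poly(A) kit whereas the labels give ribosomal RNA depletion, and the strand setting of RSEM is not given in the sources used here.

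Expected counts were rounded, scaled by TMM and filtered with filterByExpr (14008 genes left), and tested with edgeR 4.0.16 (glmQLFit and glmQLFTest, R 4.3.3) in 1 fit of all libraries without covariates. P-values were adjusted by the Benjamini-Hochberg method over all genes tested, with a threshold of 0.05. SEs were derived from the test statistic. Fold cutoffs followed the study (2 for LPS in WT cells, 1.3 for CTCF depletion without LPS and 1.5 with it), and the cutoff of 2 was here also applied to KOL against KO. Ratios of summed TPM were tested by exact permutation within strata. Alternatives were leaving out each library in turn, a replicate block, DESeq2 1.42.0, DESeq2 size factors within edgeR, a filter of at least 10 counts in all libraries or none, and limma 3.58.1 on log2 TPM with a pseudocount of 1 or 0.1 (TPM of 1 or more in at least 3 libraries). Leaving out WTL replicate 1 and KOL replicate 2 together, a GC correction (lowess of each library's deviation on transcript GC content) and TPM rescaled by TMM were chosen after seeing the data. The last shifted each library to an equal median log2 ratio of TPM to TMM-normalized counts. On simulated KO and WT counts, edgeR recovered 171 of 200 changed genes (85.5%) and called 10 unchanged ones out of 13674. The simulation gave all groups the same spread, whereas LPS-treated groups spread more in the data, so it does not cover that case. Gene positions are those of GENCODE M21, and promoter windows are from RefSeq.

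The 10 genes, the gene lists and the rule for naming genes were chosen with earlier results of these data known. Named were all 10 genes, H2-Eb2 and H2-Ea-ps, Ctcf, tested genes within 100 kb of the chromosome 17 members, up to 3 genes per pathway list by the size of the change in KO against WT together with Rfx5, Spi1, Irf8 and Ctss, cell type markers, and the 5 genes most like each pattern. A few genes that meet these rules are not reported here. All 3 genes of surface turnover are given with values. The markers given with values were picked from their lists after their values were seen. T cell, mast cell and basophil markers were also read: of 5 and 4 markers, 1 each was abundant enough to be tested, Cd8a and Kit, and both were lower in KO.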

Additional observations from a re-analysis of the deposited data

Results flagged for a closer look

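In 4 of the 10 genes the LPS response differed between CTCF-deficient and WT BMDCs by the test of the interaction itself. On the log2 scale the response was larger in CTCF-deficient cells by 0.74 for H2-Aa, 0.85 for H2-Eb1, 0.78 for H2-Oa and 1.05 for H2-Ob (edgeR's quasi-likelihood test, adjusted p = 0.00048, 0.00042, 0.0031 and 3.9e-05). All 3 KOL libraries were above all 3 KO libraries in each of these genes. For H2-Aa and H2-Eb1 the larger response started from a lower untreated level, and for H2-Oa and H2-Ob it started from a level that did not differ by the test. Over all single libraries left out in turn, the differences ranged from 0.65 to 0.84 for H2-Aa, 0.75 to 0.95 for H2-Eb1, 0.70 to 0.89 for H2-Oa and 0.97 to 1.12 for H2-Ob, with an edgeR adjusted p of at most 0.0027, 0.0024, 0.012 and 0.00033. Of 6 dendritic cell markers, 4 had an interaction in the same direction (0.85 for the maturation marker Ccr7, 0.48 for Cd86, 0.53 for Zbtb46 and 1.42 for Flt3) and 2 in the opposite one (-0.62 for Itgax and -0.70 for Itgam), with edgeR adjusted p of 0.00062, 0.004, 0.013, 0.0044, 0.002 and 0.047. Over all genes tested, 8.7% were higher and 8.75% lower in the interaction. The part of these markers in the class II differences was not tested.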

How the results depend on the processing

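The falls of H2-Aa, H2-Ab1, H2-Eb1, H2-DMa and H2-DMb1 in KO, of H2-Aa, H2-DMa, H2-DMb1 and Ciita in KOL, the rises of H2-Oa and H2-Ob in KOL, and the 4 interactions kept an adjusted p under 0.05 in every alternative fit, and the fall of H2-Eb1 in KOL did not. The LPS responses depended on the scaling. On either TPM scale 0 genes were higher and 2 lower in WTL against WT and 2 lower in KOL against KO. With pseudocounts of 1 and 0.1, 7544 and 7476 of all 13435 genes were lower in WTL against WT. In KOL against KO, 6935 and 6892 were lower. The sign was then reversed for H2-DMa (-0.44), H2-DMb1 (-0.01), H2-DMb2 (-0.29) and H2-Ob (-0.14) in WTL against WT, for H2-DMa (-0.36) and Ciita (-0.41 with a pseudocount of 1, -0.43 with 0.1) in KOL against KO, and for H2-Ob in KO against WT (-0.21 and -0.22, and -0.12 with TPM rescaled by TMM). Genes called in the interaction over all genes were 2443, but 1552 and 1363 on the TPM scales, 4389 without WTL replicate 1 and KOL replicate 2, and 3769 without KOL replicate 2 alone, and 61.1% and 64.3% of those on TPM were higher, in place of 49.9%. With the study's fold cutoffs, 0 genes were higher in WTL against WT and 2 lower in KOL against WTL.

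Without WTL replicate 1 and KOL replicate 2, 8 genes were lower in KO, and 7 were higher and 1 lower in the interaction. Over all 14331 genes tested in that fit, 4059 were lower in KO, in place of 3131 of 14008. In the interaction, 2046 of them were higher and 2343 lower. The libraries left out are not in KO against WT, so its added calls came through the pooled spread. In the same fit, Ciita in KOL against KO (-0.10) and the interaction of H2-DMa (-0.04) changed sign. With a GC correction 7 were higher in the interaction, where 1545 of all 13999 genes were. With no filter 1 was lower, where 1309 of all 27287 genes were. Leaving out single libraries moved the count higher in KO between 0 and 1 and the count lower in the interaction between 0 and 1. It moved the log2 fold change of H2-DMa from -0.02 to 0.21 in WTL against WT, from 0.00 to 0.17 in KOL against KO and from -0.12 to 0.11 in the interaction, that of H2-Ab1 from -0.33 to 0.01 in KOL against WTL, and that of Ciita from -0.10 to 0.26 in KOL against KO. The log2 difference of the H2-Ab1 to H2-Aa ratio ranged from 0.21 to 0.39 for genotype and from 0.12 to 0.30 for LPS, and that of H2-Eb1 to H2-Ab1 from -0.28 to -0.17 and from -0.17 to -0.06, in each case passing without KOL replicate 2. From expected counts the H2-Ab1 to H2-Aa difference was 0.31 for genotype and passed (exact permutation, adjusted p = 0.03). The causes were not tested.

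Replicate numbers did not pair the libraries, since the correlations of same-numbered deviations were -0.286 to 0.112. A replicate block left every gene on its side of the threshold and called 2063 genes in the interaction. For the ratios, pairing by number gave the same differences for H2-DO to H2-DM (1.14 for genotype and 0.78 for LPS), Cd74 to the chains (0.75) and H2-DMb2 to H2-DMb1 (0.92) with an adjusted p of 0.078 by an exact sign-flip test, which has too few arrangements to pass after adjustment.

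With 3 libraries per group, LPS-treated replicates limit precision: the SEs of H2-Ab1, Cd74 and Ciita were 0.13 to 0.16. Culture composition, protein levels and transcript isoforms of Ciita were not analysed here.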
